A study of Mus musculus with 6 samples.

Results

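Il6, Stat3 and Cebpd are the cytokine, the transducer and one of the target transcription factors of the interleukin-6 pathway, and their probes are described here on every array of the series. The members were chosen by gene symbol, and these genes were selected on the same ratios that are given below, so their ratios are a description and carry no test. Of the 13409 genes named in the platform annotation and the 19200 probes of the array, 3 genes and 4 probes were members: 1 probe of Il6 (probe 6046), 1 of Cebpd (5334) and a pair of different probes of Stat3 (1721 and 15653). Epididymal white fat came from male C57BL/6J mice, 12 weeks of age, that had received either 1 mg per kg of CL-316,243, which stimulates the beta3-adrenergic receptor on fat cells, or saline, and was taken 3 hr later. RNA of 6 mice made 1 pool for each treatment, and both pools were hybridised together on 6 arrays with 2 colours. The pool of treated mice was in channel 1 on arrays 1, 2 and 3 and in channel 2 on arrays 4, 5 and 6. Pooling hides the spread between mice, and the arrays repeat 1 pair of pools, so every error and p-value below covers array-to-array spread only. The sources used here do not give the numerator pool. "Higher" and "lower" therefore mean higher or lower in the numerator pool, with the deposited sign, and every direction turns if the saline pool is the numerator. Ratios are taken as log2, so that 1 is a doubling.

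Interleukin-6 is a cytokine made by immune cells, stromal cells and fat cells, and its gene is switched on by cyclic AMP, NF-kappa B, C/EBP and AP-1 factors that bind close to its start. The cytokine binds a receptor made of Il6ra and the shared signalling chain Il6st; Janus kinases attached to that chain phosphorylate Stat3, which enters the nucleus and raises acute phase genes, its own gene, feedback inhibitors of the Socs family and Cebpd. Cebpd is a C/EBP factor that acts early in fat cell differentiation and in the acute phase response. In white fat, beta3-adrenergic agonists raise cyclic AMP and start lipolysis.

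The sequence just before the start of Il6 is shown because some of the genes counted further on encode factors known to bind there. Not all do: genes of NF-kappa B inhibitors, such as Nfkbie, are counted with them. The sequence before Stat3 is shown beside that of Il6 as the other member with an entry in the promoter table used here. Both are RefSeq sequences of build GRCm38.p6, 250 bases that end at the base before the transcript start, written 5′ to 3′ on the gene's strand. Il6 lies at chr5:30012864-30013113 on the plus strand and Stat3 at chr11:100939541-100939790 on the minus strand. Capitals mark matches, on either strand, to 5 motifs: ACGTCA (the core of a cyclic AMP response element), GGANTTTCC (kappa B), TTGNNCAA (C/EBP), TGANTCA (AP-1) and TTCNNNGAA (STAT), where N is any base. The motifs were written down with the Il6 sequence known. Where matches of different motifs overlapped they would share capitals, and none did.
Il6: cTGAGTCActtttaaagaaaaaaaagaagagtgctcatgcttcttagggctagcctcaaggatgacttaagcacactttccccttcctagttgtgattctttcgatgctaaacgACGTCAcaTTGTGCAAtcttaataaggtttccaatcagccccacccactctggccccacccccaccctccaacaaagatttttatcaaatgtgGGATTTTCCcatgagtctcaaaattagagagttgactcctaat
Stat3: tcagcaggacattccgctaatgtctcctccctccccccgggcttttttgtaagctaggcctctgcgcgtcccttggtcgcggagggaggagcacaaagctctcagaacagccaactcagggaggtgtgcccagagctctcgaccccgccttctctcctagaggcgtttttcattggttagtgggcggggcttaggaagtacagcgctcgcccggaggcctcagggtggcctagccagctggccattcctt
The Il6 stretch held 1 match to each of 4 motifs: TGAGTCA began 249 bases before the start, ACGTCA 136 bases, TTGTGCAA 128 bases and GGATTTTCC 43 bases before it. Among 32851 mouse promoter stretches of the same length, ACGTCA was found in 6.47%, TTGNNCAA in 5.65%, TGANTCA in 6.75% and GGANTTTCC in 1.07%. The STAT motif, found in 7.02% of stretches, had no match in either sequence, and the Stat3 stretch held no match to any of the 5. These matches are letters in a window; no binding was measured.

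Rows of the table do not name the same spot on every array. Spots were dropped before deposit and the rest moved up, so that each column is empty only at its end (1 row on array 6, 8 on array 5, 29, 38 and 169 on arrays 1, 3 and 4, and 724 on array 2). Each column was therefore placed on probe numbers by a model that lets a column lose spots, and a value was kept where the posterior probability of its position was at least 0.95. Array 2 was placed for 63.0% of probes and the others for 91.7% to 99.8%. After placement, the mean Spearman rho between arrays was 0.28 within and 0.11 across orientations, values that the placement itself raises; probes are not independent replicates. In the fit over all probes, 702 of 18111 passed a limma adjusted p of 0.05 (3.88%), 471 of them higher (2.6%) and 231 lower (1.28%); at the level of genes 414 of 12522 passed (3.31%). Those counts fell to 210 probes and 149 genes without array 1, to 374 and 214 without array 4 and to 167 and 115 without array 5. Leaving out an array also took from the test every probe or gene left without 2 values in each orientation. The 4 member probes all passed on the higher side, which is what they were selected on, and nothing is read from that count.

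The placement gave 21 of 24 possible values for the 4 member probes, and all 21 were positive. The 3 that were not kept were Il6 and Cebpd on array 2 and Stat3 probe 1721 on array 4. At their most probable positions these values were 1.82, 1.03 and 0.51, with posteriors of 0.858, 0.753 and 0.915. They are left out of every value printed below from this placement. With the member probes masked, the most probable positions held -0.06 for Il6 (posterior 0.796), -1.83 for Cebpd (0.385) and 0.51 for Stat3 probe 1721 (0.798). The sign of Il6 and Cebpd on array 2 is thus not settled. All 21 kept values came from the same rows when the member probes were masked in the placement and when each array was placed only against arrays of its own orientation. They could also be set against a placement that used no named probe at all. Each of the 48 blocks of 400 spots holds a run of 24 unnamed spots whose ratios repeat from block to block, and with those spots alone 14 member values could be placed, all 14 from the same rows as before. Those 14 include Il6 on arrays 5 and 6, where the columns had lost 8 and 1 spots before the probe.

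Il6, the cytokine, had the largest mean ratio of the 4 probes. Its log2 ratio was 2.46 on array 1, 1.16 on array 3, 2.25 on array 4, 1.89 on array 5 and 1.02 on array 6. Arrays 1, 4 and 5 were high and arrays 3 and 6 lower, with high and low arrays in both orientations. Between them the folds ran from 2.02 to 5.51. The mean of both orientations was 1.76 ± 0.23 (SE, n = 5 arrays), a 3.40-fold difference between the pools, and the probe stood at rank 29 from the highest mean ratio among the 18111 probes tested. Within single arrays the value lay above 98.5% of placed values on array 6 and above 99.9% on array 1.

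**Figure D1:**
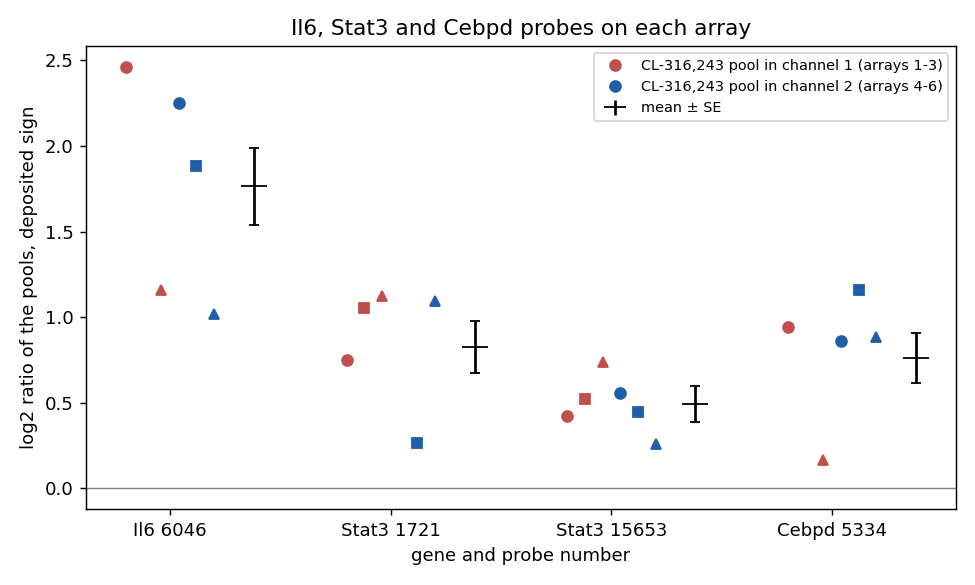
Log2 ratio of the pools (vertical axis, deposited sign) for each member probe (horizontal axis); red points are arrays 1 to 3, with the CL-316,243 pool in channel 1, blue points are arrays 4 to 6, within each colour a circle, a square and a triangle are the arrays in rising number, and black bars are the fitted mean ± SE. All 21 points lie above 0, from 0.16 for Cebpd on array 3 to 2.46 for Il6 on array 1.

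Probes beside Il6 on the array showed no such ratio. Probe 6045, which represents the DNA ligase gene Lig1, averaged -0.23 ± 0.26 (SD, n = 5 arrays), and its values ran from -0.62 to -0.02. Probe 6047, for the small GTPase gene Cdc42, averaged -0.25 ± 0.21 (SD, n = 5), with values from -0.56 to 0.05. The lowest Il6 value, 1.02, thus lay above every value of both adjoining probes. A placement that was 1 spot off would have read one of these in place of Il6, and 1 such placement was met: without the repeated unnamed spots, and with array 6 held to its deposited rows at the start, probe 6046 had a mean of -0.26. The summed gain in log-likelihood of that placement was 9033, against 10474 from the same settings with array 6 free to move, in which Il6 averaged 1.77.

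Stat3, the transcription factor that carries the signal from the IL-6 receptor to the nucleus, was measured by a pair of probes in distant blocks of the array. Probe 1721 had log2 ratios of 0.75, 1.05 and 1.13 on arrays 1, 2 and 3, and of 0.26 and 1.09 on arrays 5 and 6. Array 5 was low, and the other 4 arrays ran from 0.75 to 1.13. Its mean was 0.83 ± 0.15 (SE, n = 5), or 1.77-fold. Probe 15653 had 0.42, 0.52 and 0.74 on arrays 1 to 3 and 0.55, 0.45 and 0.26 on arrays 4 to 6. This probe had the narrowest spread of the 4 (SD 0.16 over 6 arrays) and the smallest mean, 0.49 ± 0.11 (SE, n = 6), or 1.40-fold. On the 5 arrays that both probes share, probe 1721 was above probe 15653 on 4, by a mean of 0.38 ± 0.37 (SD), and below it on array 5. Both probes thus gave the same sign, while the size of the Stat3 difference depended on the probe.

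The probes next to those of Stat3 were less quiet than those next to Il6. Probe 1720 belongs to Lifr, the receptor of leukaemia inhibitory factor and itself a partner of Il6st, and averaged 0.05 ± 0.54 (SD, n = 5). Probe 1722, for the chromatin protein gene Hmga2, ran from -2.37 to 0.91. Probe 15652, for the lysosomal fucosidase gene Fuca1, averaged -0.15 ± 0.21 (SD, n = 6). Probe 15654, for Cttnbp2nl, averaged 1.03 ± 0.29 (SD, n = 6) and was above Stat3 probe 15653 on every array it shares, so for this probe a shift of 1 spot would leave the sign and raise the size. In the placement that was 1 spot off, probe 15653 had exactly that mean of 1.03.

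Cebpd, the C/EBP factor downstream of Stat3, had log2 ratios of 0.94 on array 1, 0.16 on array 3, 0.86 on array 4, 1.16 on array 5 and 0.88 on array 6. Array 3 stood apart, with a fold of 1.12 against 1.82 to 2.23 on the other 4. The mean was 0.76 ± 0.15 (SE, n = 5), or 1.69-fold. Probe 5333, for the neuronal factor gene Neurod1, averaged 0.18 ± 0.58 (SD, n = 5), and probe 5335, for the trefoil peptide gene Tff3, 0.28 ± 0.37 (SD, n = 5). Their highest values, 1.09 and 0.83, overlapped those of Cebpd, so the position of Cebpd is less clear from its surroundings than that of Il6.

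**Figure D2:**
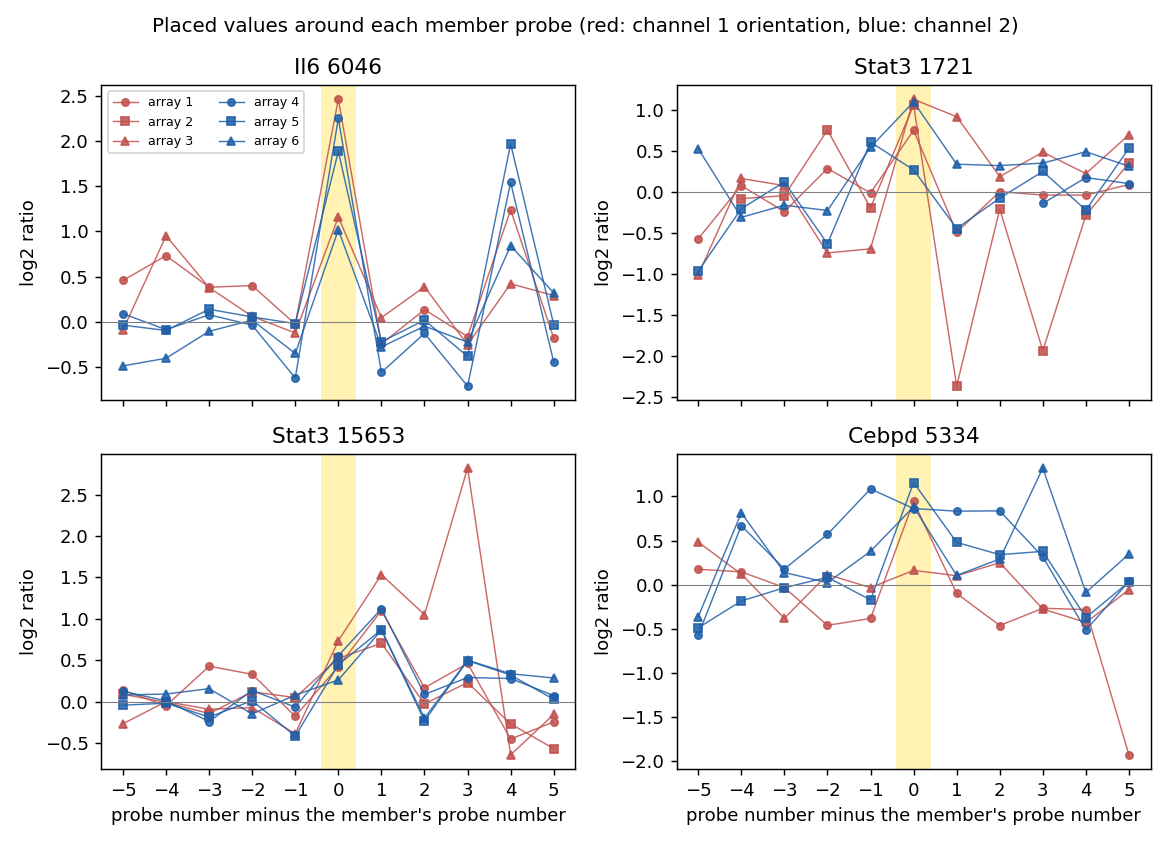
Placed log2 ratios (vertical axis) at the 5 probe numbers before and after each member probe (horizontal axis, steps from the member, shaded at 0), 1 line for each array, red for arrays 1 to 3 and blue for arrays 4 to 6; gaps are values not placed. Il6 stands above both adjoining probes on all 5 arrays with a value, while beside Stat3 probe 15653 the next probe is the higher one.

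The order of the members differed between arrays. Il6 was above Stat3 probe 15653 on all 5 arrays with both values, by a mean of 1.27 ± 0.67 (SD), and above Cebpd on all 5, by 0.95 ± 0.55. The margin over Cebpd was 0.14 on the array where it was smallest, so Il6 and Cebpd came close there. Against Stat3 probe 1721, Il6 was higher on 3 of 4 shared arrays and lower by 0.07 on the other. Cebpd and Stat3 probe 1721 did not separate, with a mean difference of 0.02 ± 0.78 (SD, n = 4) and each higher on 2 arrays. These are differences between ratios of different probes and say nothing of the amount of each transcript.

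Dye orientation is the contrast that played no part in the choice of the members, and it was tested. Il6 averaged 1.81 where channel 1 held the CL-316,243 pool and 1.72 where channel 2 did, a difference of 0.09 ± 0.45 (SE). Stat3 probe 1721 averaged 0.98 and 0.68, a difference of 0.30 ± 0.30, and probe 15653 averaged 0.56 and 0.42, a difference of 0.14 ± 0.21. Cebpd was the other way round, 0.55 in channel 1 and 0.97 in channel 2, a difference of -0.41 ± 0.29. No member passed (limma adjusted p = 0.96, 0.74, 0.83 and 0.62, unadjusted 0.84, 0.35, 0.52 and 0.19), and the values of both orientations overlapped for each probe. Over all probes 1 of 18111 passed for dye orientation (0.00552%), and over genes 1 of 12522 (0.00799%). The mean Spearman rho was 0.28 within and 0.11 across orientations, so this small count does not show that dye effects are absent. With 3 arrays at most on each side, differences as large as these errors could not be told from 0. The deposited sign did not turn with the orientation for any member, nor for 83 of the 84 probes whose mean was at least 1 in size in both orientations. The placement matched signed values across all arrays and so favours a shared sign, and the count of 83 is no independent check. For the members, all 21 kept values came from the same rows when each array was placed only against its own orientation.

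**Figure D3:**
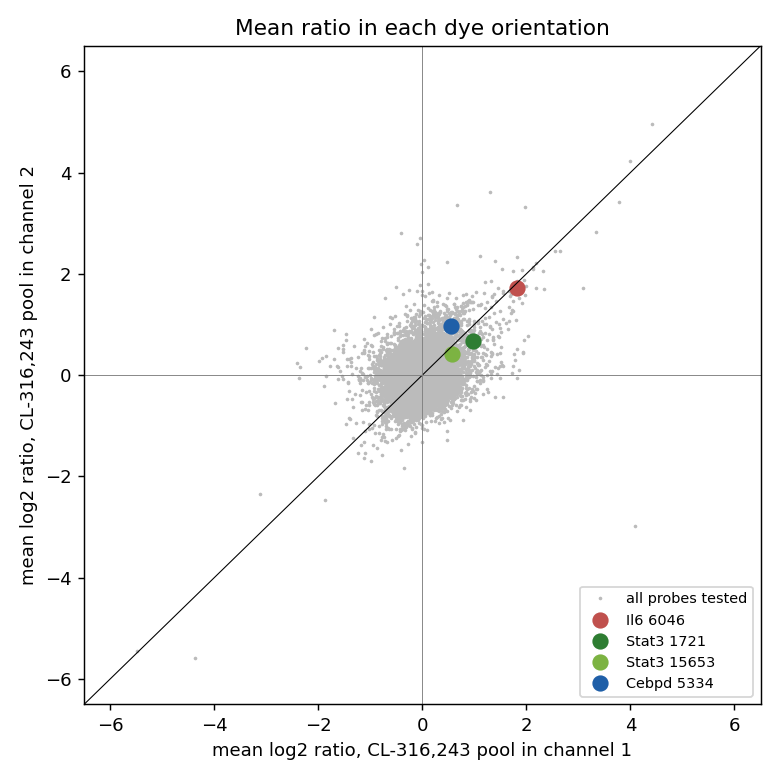
Mean log2 ratio of each of 18111 probes over the arrays with the CL-316,243 pool in channel 1 (horizontal axis) and in channel 2 (vertical axis); large points are the member probes, the diagonal marks equal means, and 3 probes lie outside the axes. The 4 member probes lie to the upper right of 0, Il6 nearest to the diagonal and Cebpd above it.

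The rest of the pathway was described by role, over lists written with earlier results of these data known. Of 116 listed genes 97 were on the array and 93 could be tested. Of these, 9 were higher (9.68%) and 1 lower, where 1.96% of all tested genes were higher and 1.35% lower. The median log2 ratio of the 93 was 0.07 and that of all genes -0.01. Without array 1 or without array 5 there were 4 list genes higher, without array 6 there were 5, and without array 1, 4 or 5 none was lower. Leaving out an array also took genes out of the test, since a gene needs 2 values in each orientation. Cebpg, Jun and Junb could not be tested without array 1, 5 or 6, nor Myc without array 1. Part of these falls is thus genes not tested and not calls lost.

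The ligand, receptor and kinase lists hold what acts upstream of Stat3. Of the 4 tested ligands of the family none passed, and Ctf1 (cardiotrophin 1, 0.26 ± 0.14 SE, n = 6) and Clcf1 (-0.27 ± 0.10, n = 6) had the largest ratios in size. Of 7 receptor and shedding genes none passed; Osmr, the oncostatin M receptor, had 0.34 ± 0.11 and was positive on 6 of 6 arrays, Il6ra had -0.02 ± 0.20 and Il6st -0.16 ± 0.20. None of 8 Janus kinase and adaptor genes passed, with Tyk2 at -0.31 ± 0.11 and Jak2 at -0.18 ± 0.12. The ligand list had a median of -0.12, the receptors -0.02 and the kinases -0.06. By limma, 1 gene of each of these 3 lists had an unadjusted p under 0.05, as had 18.4% of all tested genes. With 1.96% of all genes higher and 1.35% lower, lists of 4, 7 and 8 genes with none past the threshold lie near the background.

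Among the other Stat genes, Stat5b, which carries growth hormone and prolactin signals, was lower (-0.53 ± 0.11 SE, n = 6, limma adjusted p = 0.030). Its values were 0.03, 0.16 and -0.20 on arrays 1 to 3 and -0.94, -0.91 and -1.30 on arrays 4 to 6. The orientations did not overlap, and the call rests on arrays 4 to 6; the difference between orientations was 1.05 (limma adjusted p = 0.38). Without array 1, 4, 5 or 6 the limma adjusted p lay between 0.067 and 0.095, and over all alternatives it ran from 0.014 to 0.99. Stat4 (0.32 ± 0.13, n = 6) had the next largest ratio of the 5 and did not pass.

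None of 12 feedback inhibitors passed (2 had an unadjusted p under 0.05 by limma), a count near the background, and their median was -0.07. Cish, a Stat5 target that damps cytokine receptors, had -0.33 ± 0.16 (SE, n = 5), and Pias4, a SUMO ligase that restrains Stat factors, had -0.28 ± 0.12 (n = 6). Socs3, the inhibitor that Stat3 itself switches on, could not be tested, because it was placed on arrays 5 and 6 alone, with 0.37 and 0.84. It was positive on both of those arrays.

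Of the other C/EBP factors, Cebpg was higher on all 4 arrays with a value, 1.61 and 0.80 on arrays 1 and 3 and 1.89 and 1.77 on arrays 5 and 6. Cebpg pairs with other C/EBP and ATF proteins and lacks an activation domain of its own. Its mean was 1.52 ± 0.17 (SE, n = 4, limma adjusted p = 0.0041), or 2.87-fold. It could not be tested without any one of these arrays, since an orientation then has fewer than the 2 values the fit requires. Ddit3, the stress-induced C/EBP factor CHOP, had 0.72 ± 0.17 (n = 6, adjusted p = 0.052 by limma) and missed the threshold, which it passed without array 3 (0.92, limma adjusted p = 0.0037). Cebpb, the close relative of Cebpd, had -0.06 ± 0.13 (n = 5), and Cebpa 0.53 ± 0.19 (n = 6). Cebpa was 1.81 on array 3, against -0.05 to 0.48 on the others, and 0.28 without array 3.

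Among 31 tested Stat3 and acute phase targets 2 were higher and none lower, with a median of 0.12. Over all tested genes 1.96% were higher and 1.35% lower. By limma, 9 of the 31 had an unadjusted p under 0.05, against 18.4% of all tested genes. The list was written with earlier results known, so these counts carry no test. Junb, an AP-1 subunit that Stat3 induces, had 1.13 ± 0.22 (SE, n = 4, limma adjusted p = 0.038), with 1.90 and 0.69 on arrays 1 and 3 and 0.60 and 1.32 on arrays 5 and 6. It could not be tested without any one of these 4 arrays, and its call was lost in each orientation alone (limma adjusted p 0.15 and 0.086, over all alternatives 0.019 to 0.95). Myc, the growth factor-induced transcription factor, had 0.72 ± 0.15 (n = 5, limma adjusted p = 0.039) and lost its call without array 4, 5 or 6 (adjusted p 0.070 to 0.15 by limma, over all alternatives 0.017 to 0.97). The acute phase proteins did not pass: Hp, haptoglobin, had 0.88 ± 0.37 (n = 5), and this rested on array 3, where it was 3.13, against -0.11 to 0.51 on the others. Saa3, serum amyloid A made in fat, had -0.17 ± 0.13, and the copper carrier Cp had -0.49 ± 0.13 with all 6 arrays below 0 and a limma adjusted p of 0.071; without array 6 it was lower (-0.60, limma adjusted p = 0.044). Pim3, a kinase gene induced through Stat3, had 0.47 ± 0.12 and was positive on 6 of 6 arrays (adjusted p = 0.076 by limma); without array 3 it passed (0.57, limma adjusted p = 0.023).

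The list of factors that act on the Il6 promoter, which includes inhibitors of NF-kappa B, had 7 of 23 genes higher and none lower, with a median of 0.21. Over all tested genes 1.96% were higher. The list was written with earlier results of these data known, so its count is a description and carries no test. Nfkbie, an inhibitor of NF-kappa B that NF-kappa B itself induces, had 2.08 ± 0.18 (SE, n = 6, limma adjusted p = 5.1e-04), or 4.22-fold, with values from 1.38 to 2.75. With each array placed only against its own orientation it was 1.18 (limma adjusted p = 0.016, over all alternatives 2.8e-04 to 0.95). Rela, the NF-kappa B subunit p65, had 0.56 ± 0.12 (n = 6, limma adjusted p = 0.039); its call was lost without array 1, 3, 4 or 5 (limma adjusted p 0.059 to 0.16, over all alternatives 0.023 to 0.95), and in that placement Rela was 0.19 (0.55). The inhibitor Nfkbia (-0.17 ± 0.12, n = 5) and the subunit Nfkb2 (0.23 ± 0.19, n = 4) did not pass.

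Of the AP-1 genes, Jund had 1.33 ± 0.18 (SE, n = 6, limma adjusted p = 0.0045), with values from 0.63 to 2.06 on single arrays. Jun had 0.88 ± 0.17 (n = 4, limma adjusted p = 0.039), lost without array 4 (0.050, over all alternatives 0.017 to 0.97), on which Jun itself has no value. The call of Jun was also lost with channel 1 alone (limma adjusted p = 0.42) and with no dye term (0.062). Jun could not be tested without any one of the 4 arrays on which it has a value. Junb, counted above, is also in this list. Atf4, the factor of the integrated stress response that binds C/EBP-ATF composite sites, had 1.69 ± 0.16 (n = 6, limma adjusted p = 7.1e-04), or 3.23-fold. Nr3c1, the glucocorticoid receptor, which represses Il6 when bound by hormone, had 2.00 ± 0.24 (n = 6, limma adjusted p = 0.0023), or 4.00-fold, with array 3 lowest at 0.72. Fosl1 had the largest mean of the list, 2.46 ± 0.80 (n = 5), and did not pass, because its values ran from 0.37 on array 3 to 7.64 on array 4; without array 4 it was 1.45 and passed (limma adjusted p = 0.046). Crem, the cyclic AMP-responsive modulator, had 1.05 ± 0.27 (n = 5, adjusted p = 0.078 by limma), while Creb1 had 0.00 ± 0.13 and Atf3 -0.24 ± 0.16. Fos could not be tested; it had 0.50 and 0.65 on arrays 5 and 6.

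**Figure D4:**
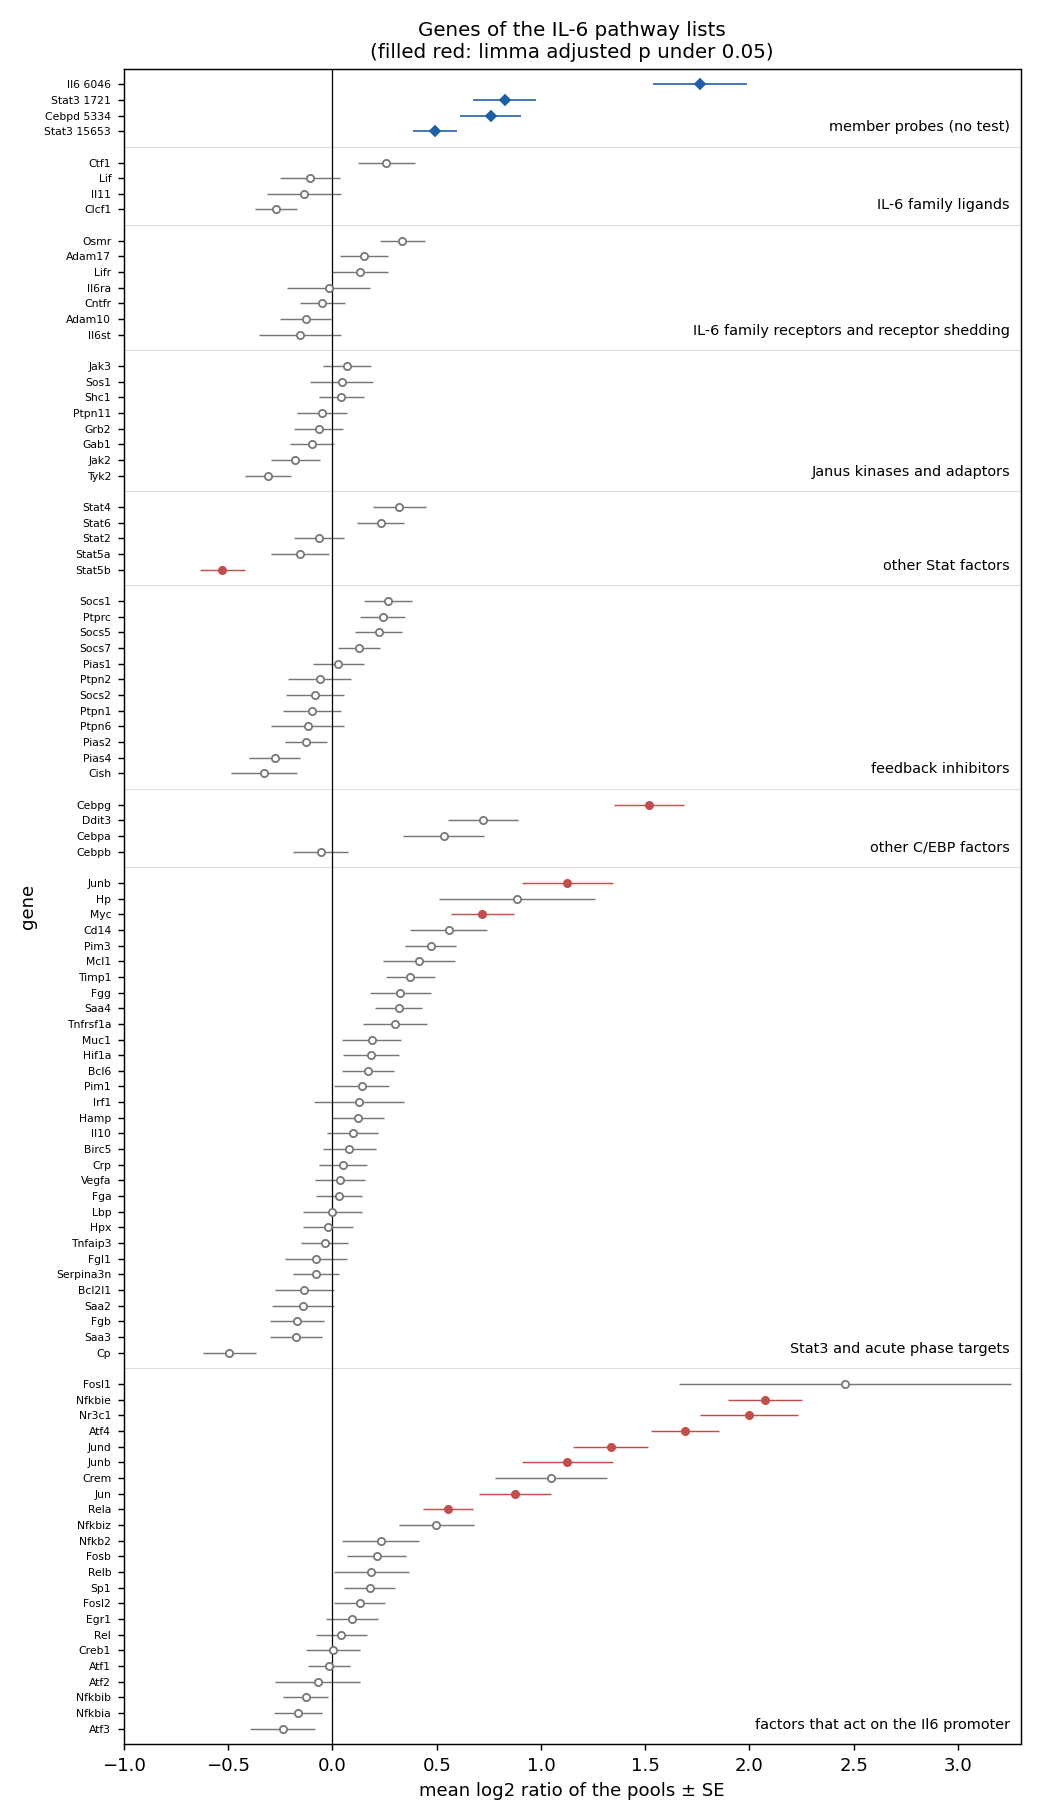
Mean log2 ratio of the pools ± SE (horizontal axis) of every tested gene of the 8 lists (vertical axis, grouped by role and ordered by ratio), with the 4 member probes on top as blue diamonds; filled red circles are genes past a limma adjusted p of 0.05 and open circles the others. Red circles above 0 sit in the C/EBP, target and promoter lists, and the ligand, receptor, kinase and inhibitor lists have none.

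Some genes had ratios much like those of a member, array by array, by root mean square difference over the arrays where the member has a value. Closest to Il6, over 5 arrays and 12440 candidate probes, were Coq10b, a coenzyme Q-binding protein (difference 0.11), Fam110c (0.18), Dnajc4 (0.18), Tnfsf14, the cytokine LIGHT (0.22), and Sdc4, the proteoglycan syndecan 4 (0.28). Coq10b followed Il6 with 2.62, 1.08, 2.31, 1.82 and 1.18 on arrays 1, 3, 4, 5 and 6. On array 2, where Il6 was not kept, Coq10b, Fam110c, Dnajc4 and Tnfsf14 had 2.26, 2.83, 1.61 and 2.38, which were not used to rank them. Closest to Cebpd was Myc (0.09), which shared its low value on array 3 (0.02), followed by Pkp2, Clec4d, Tubb5 and Nfatc1 (0.13 to 0.22). Other probes of Pkp2 (15658) and Nfatc1 (6670) did not follow Cebpd, with values of -0.57 to 0.28 and -0.51 to 0.11 and differences of 0.87 and 0.94. Closest to Stat3 probe 1721 over 8504 candidates were Nop58, Ccdc127, Yars, Timm10 and Eif5a (0.20 to 0.28), and to probe 15653 over 8365 candidates Avpi1, Cttn, Smtn, Cdc42ep2 and Saraf (0.09 to 0.15); another probe of Cttn (11490) differed from probe 15653 by 0.76. The lists of the Stat3 probes had no gene in common. Each holds only 5 of 8504 or 8365 candidates, so nothing is read from that.

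Marker genes of the cell types that fat can hold were read on the same scale, where a ratio shows a shift between the pools and not the makeup of the tissue. Among all tested genes 3.31% passed and 18.4% had an unadjusted p under 0.05, so a list of a few markers with none past the threshold is near the background. In bulk RNA, fewer cells of a type and less RNA in each cannot be told apart. None of 8 adipocyte markers passed (4 had an unadjusted p under 0.05 by limma; median 0.37, from -0.41 for Pck1 to 1.17 for Cidec), and none of 8 macrophage markers (3 with an unadjusted p under 0.05; median 0.02, from -0.69 for Mrc1 to 0.56 for Cd14). Of 6 neutrophil, 6 T and NK cell, 3 B cell, 3 mast cell, 5 endothelial and 8 stromal markers none passed (2, 0, 1, 0, 1 and 1 with an unadjusted p under 0.05), with medians between -0.20 and 0.15, and 1 of 3 mesothelial markers, Krt18, was higher (0.69 ± 0.15 SE, n = 6, limma adjusted p = 0.040). Genes of the seminal vesicle and epididymis, organs that lie against this fat depot, differed strongly: of 7 tested, 5 were lower and 1 higher, from -5.47 for Svs5 to 4.68 for Serpina1f. Their part in the ratios of Il6, Stat3 and Cebpd was not tested.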

How the data were processed

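Ratios of a CL-316,243 pool and a saline pool were measured on 6 arrays, grouped by channel of the CL-316,243 pool (3 each). The deposited values are log2 ratios here, a base the authors do not state in the sources used here; per the labels' protocols, signals from a tyramide kit were scanned, scaled between dyes and LOWESS-normalised in the authors' own program. The numerator, the background correction and the rule by which spots were dropped are also not given there. No intensities were used, so signal over background is unknown.

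The members and lists were chosen with earlier results of these data known, and the placement model and its use of unnamed spots were settled with the values in view. Columns were placed on probe numbers with a hidden Markov model: normal scores clipped at 3, predicted from the other arrays in 3 rounds, a lost spot followed by another with probability 0.5. On the 24 unnamed spots of each block the prediction was the array's own mean over the other blocks. A posterior minimum of 0.95 applied.

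Placed ratios were fitted with limma 3.58.1 (R 4.3.3; lmFit, eBayes) with dye orientation as plus and minus 1, and p-values were adjusted by Benjamini-Hochberg over all probes or genes tested, with a threshold of 0.05; a probe needed 2 values in each orientation, and a gene's value is the mean of its probes. The number of arrays limits the precision. Placement and fit were also run on simulated data with a signal shared by all arrays and no dye effect. These are simpler than the real arrays, so the runs do not show how well the real columns were placed. Of 19200 probes, 14711 had 1 symbol in the platform annotation, 6 had several and were not named, and 4483 are unnamed here. Named were every member probe with its adjoining probes, list genes past the threshold and the 2 largest ratios of each list, and the 5 probes most like each member; other list and marker genes named were chosen after their values were seen. Alternatives were other posterior minimums and placements, arrays left out, each orientation alone, scaled or clipped ratios, no dye term, complete probes only, 1 probe per gene, medians and natural logs.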

Additional observations from a re-analysis of the deposited data

How the results depend on the processing

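Il6, both Stat3 probes and Cebpd kept their sign and moved by less than 1 SD between arrays under other posterior minimums, masking, absolute values, either orientation alone, scaling, clipping, no dye term and medians. Most of these outcomes were fixed by the kept values. All 21 were positive, so any mean or median of them is positive, and none reached 3, so clipping changed no member value. Masking and absolute values could have moved rows, and the 21 and 19 member values they kept came from the same rows. Leaving out 1 array gave 1.63 to 1.94 for Il6, 0.79 to 0.88 and 0.45 to 0.53 for Stat3 probes 1721 and 15653, and 0.71 to 0.79 for Cebpd. Only Stat3 probe 15653 has values on all 6 arrays, so the complete-probe setting gave no value for the others, Il6, Cebpd and Stat3 probe 15653 had too few values with control spots alone, and Il6, Cebpd and Stat3 probe 1721 without some arrays. Taken as natural logs, Il6 became 2.54 and the Stat3 probes 1.19 and 0.71. Rows as deposited gave -0.089 for Il6, -0.13 and 0.24 for Stat3, and -0.76 for Cebpd. Under the main placement these rows hold spots other than the members, except for Stat3 probe 1721 on array 6. The placement without the repeated unnamed spots that started from the rows of array 6, added after seeing the data like the other 3 placements that change their use, gave -0.26 for Il6, -0.17 and 1.03 for Stat3 and 0.24 for Cebpd. No dye orientation call changed.

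Probes past the threshold numbered 0 by limma with rows as deposited (699 with an unadjusted p under 0.05) and 59 with channel 1 alone; leaving out 1 array gave 167 to 630. Genes numbered 0 with rows as deposited (489 unadjusted), 94 and 225 with channel 1 and channel 2 alone, 267 with control spots alone, 268 from the rows of array 6, and 115 to 378 with 1 array left out. List genes on the higher side numbered 0 (5 in either direction unadjusted), 4 and 2 with rows as deposited, channel 1 alone and the rows of array 6, and 4 to 9 with 1 array left out. On the lower side there were 0 with rows as deposited, no dye term, channel 1 alone and the rows of array 6, and 0 to 1 with 1 array left out; without array 6 that one was Cp, and Stat5b no longer passed. Jund turned to -0.00088 and -0.15, Nr3c1 to -0.19 and -0.032 with rows as deposited and from the rows of array 6, and Myc to -0.059 with rows as deposited. With an array left out, probes and genes without 2 values in each orientation left the test as well. How far this lowered the counts, and the cause of the smaller counts in the other settings, was not tested. No paired analysis was possible because the array numbers are not shared between orientations.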
